A study of Mus musculus with 4 samples.

Results

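The genes described here protect cells against oxidants or handle glutathione, heme and iron, and were chosen as a list of 59 gene symbols. A gene was included where the array carried a probe set annotated to its symbol alone, and of several such probe sets the brightest on average across the 4 arrays stood for it. This gave 56 genes of the 19938 that the array covers in this way, while Prdx5, Prdx6 and Aco1b were not analysed here. All 56 passed the filter on dim genes, a mean at or above the 40th percentile of all probe sets (an intensity of 167). The RNA came from the ventral midbrain of male mice on a C57BL/6J background, aged 10 to 15 weeks. The 2 wild-type arrays (WT) and the 2 arrays from Rev-erba knock-out mice (RKO) shared everything else that the labels state: cycles with 12 h of light for more than 10 days, then 2 days of constant darkness, and tissue taken on the next day. The hour of collection, the deleted part of the gene, the cells that lack it and the number of mice behind an array are unknown because the sources used here do not give them. The sample titles call each array a biological replicate. Because the mice per array are unknown, the p-values below rest on the spread between these 4 arrays alone, partly pooled over genes.

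REV-ERBα, encoded by Nr1d1, is a clock protein of the nuclear receptor family, a repressor of transcription whose ligand is heme. Heme is built from glycine and succinyl-CoA in a chain of enzymes that starts with ALAS and ends when ferrochelatase inserts iron, and it is broken down by the heme oxygenases. Oxidants are met by superoxide dismutases, catalase, peroxiredoxins and the glutathione system, many of whose genes are switched on by the transcription factor NRF2, which KEAP1 otherwise sends for degradation. In the midbrain these pathways are studied because dopamine oxidises readily and the substantia nigra accumulates iron.

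RKO was compared with WT for each gene. Of the 56 genes, Gpx8, a peroxidase of the endoplasmic reticulum, fell in RKO (1.26-fold), 0 rose and 55 did not pass. A gene passed where limma's two-sided p, adjusted by Benjamini-Hochberg over 13587 genes, was under 0.05. The share called among the 56 was 1.79%, and among all tested genes it was 1.60%, with 0.964% called lower. The share among the 56 was thus near the background. At an unadjusted p under 0.05 there were 6 of the 56, 1 higher and 5 lower, or 10.7% against 12.8% of all genes.

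Differences between the groups were small. The log2 difference, always RKO minus WT, had a median of -0.013 over the 56 genes and of -0.012 over all tested genes. Its median size without sign was 0.046 among the 56 and 0.052 among all. Of the 56, 24 lay above 0 and 32 below, and of all 13587 tested genes 5872 lay above and 7715 below. In size 47 of the 56 were smaller than 0.1, which is 83.9% against 76.3% of all genes. In 24 genes (42.9%) the RKO arrays did not overlap with the WT arrays, and the same held for 41.8% of all tested genes. The 95% interval of the difference reached at most 0.18 to each side. It included 0 for 50 genes, and for 50 genes it lay wholly within 0.26 in either direction (1.20-fold), a bound picked after the values were seen.

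**Figure D1:**
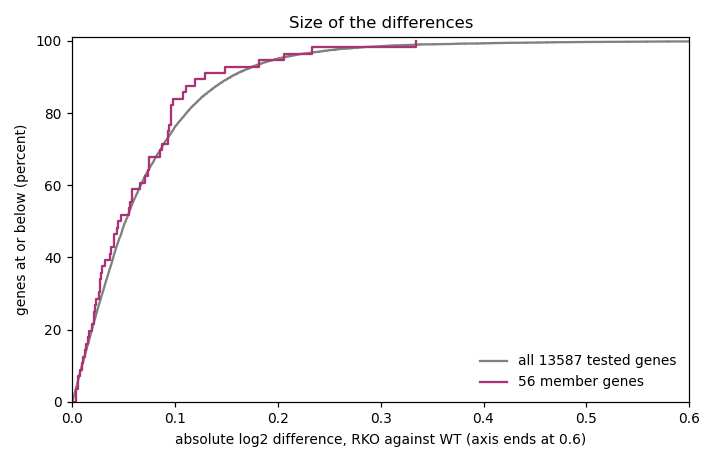
Cumulative percentage of genes (vertical axis) against the absolute log2 difference between RKO and WT (horizontal axis) for all 13587 tested genes (grey) and the 56 members (purple). The curve of the members lies close to that of all genes, with 83.9% of the members and 76.3% of all genes below 0.1.

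The genotype labels and the arrays were looked at first. Nr1d1 read 2897 and 3099 in WT and 1259 and 1229.7 in RKO (log2 difference -1.27, SE 0.064, adjusted p = 0.0038 in limma without the filter), with all arrays on the side their labels give; whether that probe set reads the deleted sequence is unknown. Dopamine neuron markers were present, with Th at 2168 and 2248 in WT and 3620.0 and 3664 in RKO, and all 7 genes of that list lay above 0, with 4 passing. RKO replicate 1 stood slightly apart: over the 56 genes it lay below RKO replicate 2 by a median of 0.056 on the log2 scale, whereas the median of WT replicate 2 minus WT replicate 1 was -0.0060. Over all tested genes RKO replicate 1 also lay below RKO replicate 2, by a median of 0.037, and the WT median was -0.00012. The shift was thus not particular to the 56 genes. In bulk tissue, fewer cells of a type and less RNA per cell cannot be told apart.

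Promoter sequences were set beside the array values, since NRF2 acts through the antioxidant response element and REV-ERBα through elements that end in a nuclear receptor half-site. Of the 56 genes, 48 matched a RefSeq promoter of build GRCm38.p6, and the 250 bases before each start were searched on both strands. The core of the antioxidant response element, TGACNNNGC, was found in 10 of these 48 genes (20.8%) and in 11.5% of all 27025 genes in the table. The REV-ERB element core, TAGGTCA, was found in 2 of the 48 (4.17%) and in 2.55% of all. No match of one overlapped a match of the other. The 27025 genes were not limited to those tested on the array, so the shares come from unlike sets. The search did not reach elements outside those 250 bases. The windows below are those of 4 genes of the NRF2 system, of Mt2 and of both genes with the REV-ERB element core, with the match in capitals; the matches in Prdx1 and Mt2 also hold the letters of an AP-1 site.
Nfe2l2 (chr2:75704885-75704913, minus strand): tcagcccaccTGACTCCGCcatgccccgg
Gclm (chr3:122245413-122245441, plus strand, match on the opposite strand): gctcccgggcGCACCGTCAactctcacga
Prdx1 (chr4:116685456-116685484, plus strand, match on the opposite strand): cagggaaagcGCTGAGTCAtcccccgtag
Txnrd1 (chr10:82859104-82859132, plus strand, match on the opposite strand): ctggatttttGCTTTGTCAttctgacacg
Mt2 (chr8:94172529-94172557, plus strand): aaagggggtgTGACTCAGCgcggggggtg
Srxn1 (chr2:152105298-152105324, plus strand): gaaatgtgagTAGGTCAtcacacttgg
Txnrd2 (chr16:18426244-18426270, plus strand): tgcgctctccTAGGTCAgaaccagttc

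The 10 genes with the antioxidant core ran from -0.13 (Gstm5) to 0.12 (Nfe2l2) with a median of 0.00091, and 0 of them passed in limma. Both genes with the REV-ERB element core lay slightly below 0, Srxn1 at -0.074 and Txnrd2 at -0.016, and neither passed. A match of letters is not a bound site.

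Of the 6 genes of the NRF2 group, which held regulators of the response and its targets Nqo1 and Srxn1, 0 passed. Nfe2l2, which encodes NRF2 itself, read 879 and 838 in WT and 885 and 983 in RKO. Both RKO values lay above both WT values, but RKO replicate 1 exceeded WT replicate 1 by little, and the difference of 0.12 (SE 0.065, adjusted p = 0.50) had an interval from -0.025 to 0.26. Keap1, its inhibitor, read 516 and 523 in WT and 513 and 547 in RKO (0.029), and Bach1, a heme-sensitive repressor of NRF2 target genes, read 478 and 468 against 467 and 495 (0.023). The groups overlapped for both. Sqstm1, the autophagy receptor that binds KEAP1, was at 0.010 with overlapping groups.

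Nqo1 and Srxn1, both known NRF2 targets, did not pass. Nqo1, a quinone reductase, read 179 and 184 in WT against 171 and 168 in RKO, a difference of -0.096 (SE 0.055, adjusted p = 0.53). The 2 RKO arrays were below both WT arrays, yet all 4 values lay just above the filter at an intensity of 167, where a probe set carries little signal. Srxn1, which repairs over-oxidised peroxiredoxins, was at -0.074 with overlapping groups.

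Heme synthesis was described by 10 genes, of which 0 passed. Alas1, the rate-limiting enzyme in most tissues, read 1266 and 1258 in WT and 1196 and 1309 in RKO. The WT values lay between the RKO values, and the difference of -0.013 (SE 0.061, adjusted p = 0.97) had an interval from -0.15 to 0.12. Alas2, the form of red cell precursors, read 227 and 241 in WT and 249.6 and 250.1 in RKO (0.096, SE 0.058, adjusted p = 0.55). Both RKO values were above both WT values by a small margin. Of the red blood cell markers, only Slc4a1 had a probe set of its own, with 231 and 218 in WT against 263 and 226 in RKO, the highest array being RKO replicate 1; the part of blood in the Alas2 values was not tested.

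Most enzymes that follow lay below 0 without passing. Fech, ferrochelatase, read 622 and 552 in WT and 554 and 543 in RKO (-0.096, SE 0.066, adjusted p = 0.62), and the WT arrays lay farther apart than the group means. Cpox, an oxidase of the mitochondrial intermembrane space, was at -0.093 and Alad, which joins 2 molecules of aminolevulinate, at -0.066, with overlapping groups for both. Uros was at -0.055 and Urod at -0.037. Uros had the smallest SE of all 56 genes (0.0545), with 415 and 418 in WT against 401 and 401 in RKO. Ppox (0.058) and the mitochondrial porphyrin transporter Abcb6 (0.041) lay above 0, and the heme exporter Flvcr1 lay at -0.019, or at 0.11 by its other probe set. Over the 10 genes the range was -0.096 to 0.096 and the median -0.028.

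Heme breakdown likewise gave 0 of 4. Hmox1, the inducible heme oxygenase, read 223 and 218 in WT and 227 and 248 in RKO, with both RKO arrays above both WT arrays and a difference of 0.11 (SE 0.061, adjusted p = 0.52). Hmox2, the constitutive form of neurons, was nearly level: 2020.3 and 2019.7 in WT against 1969 and 1996 in RKO (-0.027, SE 0.055). The biliverdin reductases Blvra (-0.056) and Blvrb (-0.048) overlapped between the groups; Blvra read 348 and 380.5 against 334 and 367.

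**Figure D2:**
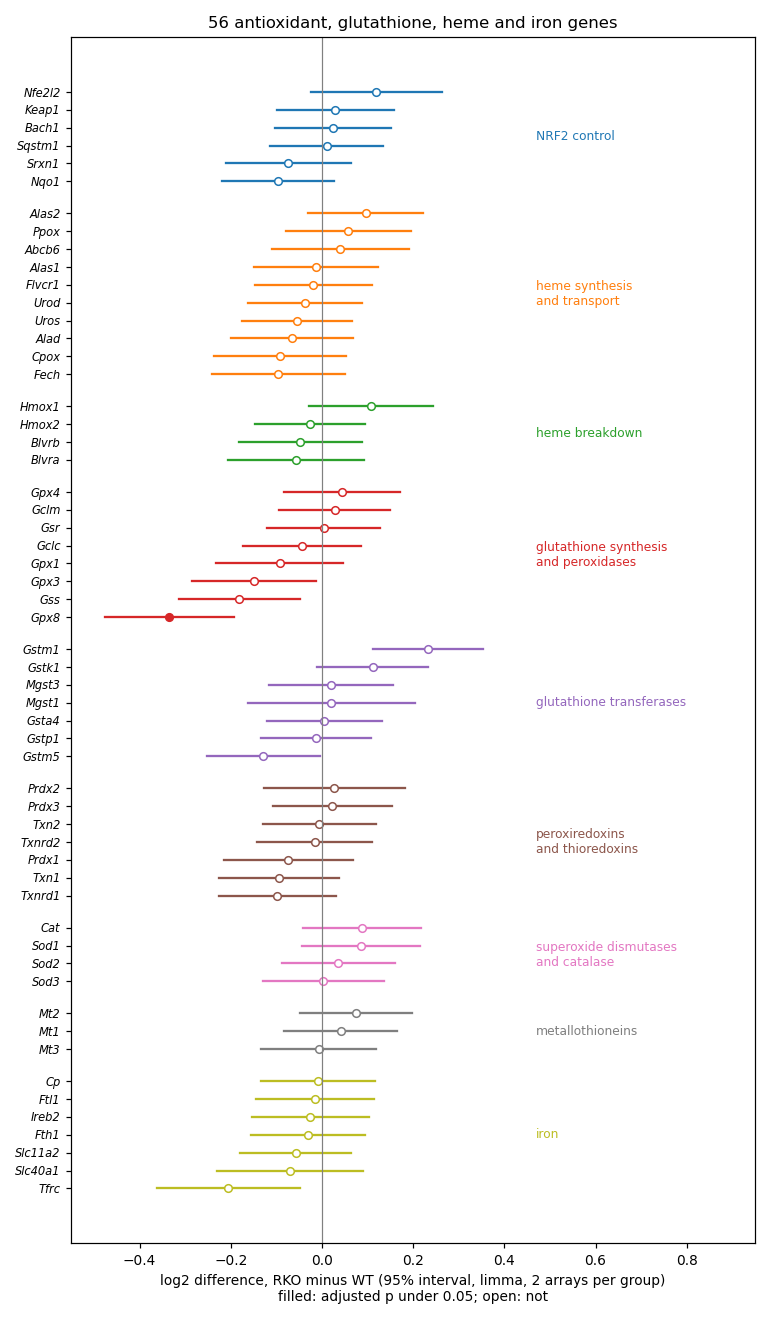
Log2 difference, RKO minus WT, of each of the 56 genes with its 95% interval from limma (2 arrays per group), grouped by role; filled points passed an adjusted p under 0.05. Gpx8 at -0.33 is the 1 filled point, and 50 of the 56 intervals cross 0.

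The glutathione group held the 1 gene that passed and 2 others with intervals that excluded 0. Gpx8 read 389 and 367 in WT and 286 and 314 in RKO. Both RKO arrays lay well below both WT arrays, and the gene fell by 0.33 on the log2 scale (SE 0.064, adjusted p = 0.0271 in limma, interval from -0.48 to -0.19). GPX8 is a membrane protein of the endoplasmic reticulum that reduces peroxide made during protein folding. The 150 bases before its RefSeq start on chromosome 13 are shown because it is the gene called; the 250 bases searched held neither core, and no letters are in capitals.
Gpx8 (chr13:113046389-113046538, minus strand): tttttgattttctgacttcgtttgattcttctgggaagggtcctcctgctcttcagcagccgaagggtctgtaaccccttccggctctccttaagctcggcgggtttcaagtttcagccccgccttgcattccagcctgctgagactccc

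The call of Gpx8 depended on the arrays and the filter. It was kept without WT replicate 2 and lost without RKO replicate 1 (adjusted p = 0.27 in limma), without WT replicate 1 (0.11) and without RKO replicate 2 (0.053). It was also lost with no filter (adjusted p = 0.24) and, near the threshold, after quantile normalization (0.056). Its difference stayed between -0.40 and -0.27 in the 12 alternatives in which it was tested.

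Most markers of the leptomeninges, but not all, were lower in RKO, as Gpx8 was. Of 9 marker genes listed for that tissue, 8 were above the filter and 1, Lum, was below it, and 5 of the 8 were lower by the same test: Ogn (-1.11), Aldh1a2 (-0.50), Slc6a13 (-0.49), Dcn (-0.41) and Slc22a6 (-0.28). Igf2 (-0.23) did not pass, and the collagen genes Col1a1 (0.13) and Col1a2 (0.069) lay above 0. Among all tested genes 0.964% were called lower, but the marker list was chosen with earlier results of these data known. Its share of calls is therefore no independent result. Summed over all 9, the intensity came to 4464 and 4513 in the WT arrays against 3621 and 3620.0 in the RKO arrays. Ogn alone went from 322 and 304 to 153 and 137, both RKO values below the filter's 167. Sums over the astrocyte, oligodendrocyte, microglia, and endothelial and pericyte marker lists were also lower in both RKO arrays than in both WT arrays. Those of the choroid plexus and dopamine neuron lists were higher. The choroid plexus sum was mostly Ttr, with 6973 and 6634 in WT and 7420.5 and 7330 in RKO. Of the 5 choroid plexus genes above the filter, 4 lay above 0 without passing. The 1 below 0, Kcnj13 (-0.37), was lower by the same test. The part of any of these cells in the value of Gpx8 was not tested.

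**Figure D3:**
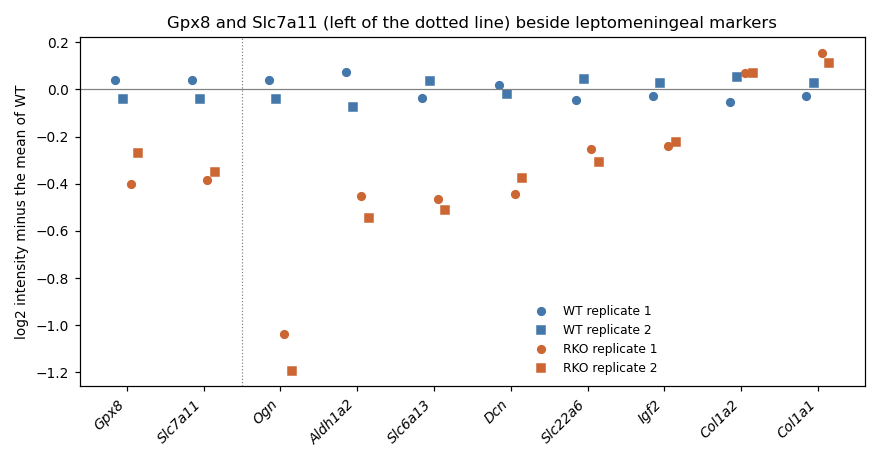
Log2 intensity of each array minus the mean of the WT arrays (vertical axis) for Gpx8, Slc7a11 and 8 leptomeningeal marker genes (horizontal axis), WT in blue and RKO in orange. Both RKO arrays lie below both WT arrays for Gpx8, Slc7a11 and 6 of the 8 markers, and above them for Col1a2 and Col1a1.

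The other members of the glutathione group did not pass. Gss, the enzyme of the last step of glutathione synthesis, read 466 and 429.7 in WT and 396 and 393 in RKO. Both RKO values were below both WT values (-0.18, SE 0.060, adjusted p = 0.21, interval from -0.31 to -0.049). Gpx3, a secreted peroxidase, read 899 and 909 in WT and 779 and 854 in RKO (-0.15, SE 0.062, adjusted p = 0.33). Here too the groups did not overlap, with RKO replicate 1 the lower of its pair. Gpx1, the main cytosolic peroxidase, was at -0.093 with 1253 and 1236 against 1109.8 and 1226, so most of that difference came from RKO replicate 1.

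The rate-limiting step of glutathione synthesis was nearly level. Its catalytic subunit Gclc read 1539 and 1567 in WT and 1454 and 1560.1 in RKO (-0.044, SE 0.059). Its modifier subunit Gclm read 2065 and 2041 against 2116 and 2072 (0.028, SE 0.055). Gclc overlapped between the groups and Gclm did not, but the gap for Gclm was small. Gsr, which regenerates reduced glutathione, was at 0.0037 with an interval from -0.12 to 0.13. Gpx4, which reduces lipid peroxides in membranes, was at 0.044, or at 0.078 by its other probe set.

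Among the glutathione transferases, which couple glutathione to electrophiles, 0 of 7 passed, and the largest positive difference of all 56 genes was found here. Gstm1 read 3888 and 3857 in WT and 4576 and 4527 in RKO. Replicates agreed closely in both groups and all RKO values exceeded all WT values, with a difference of 0.23 (1.18-fold, SE 0.055, adjusted p = 0.0691 in limma, interval from 0.11 to 0.35). It passed in 4 of 13 alternatives: with an offset of 50, with the 60th percentile filter, with an intensity trend and with the crossed replicate block. The last of these was added after the data were seen. Gstm1 belongs to a family of closely similar genes, so its signal is uncertain as to the member. Other genes of the family lay above 0 without passing: Gstm6 (0.12), Gstm4 (0.067), Gstm2 (0.062) and Gstm7 (0.050).

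Gstm5, of the same family, lay below 0, with 1939 and 1974 in WT and 1755 and 1824 in RKO (-0.13, SE 0.056, adjusted p = 0.37). The groups did not overlap. Gstk1, a transferase of mitochondria and peroxisomes, read 1782 and 1731 in WT and 1882 and 1911 in RKO (0.11, SE 0.055, adjusted p = 0.45). The remaining 4 lay between -0.012 (Gstp1) and 0.021 (Mgst1 and Mgst3), with Gsta4 at 0.0055. Mgst1 had the widest interval of all 56 genes, with 357 and 300.3 in WT.

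Astrocytes are a main site of Gstm1 in the brain, and markers of these cells did not move together. Of 8 astrocyte markers, Gfap (-0.51) and Aldh1l1 (-0.31) were lower by the same test, 6 did not pass, and Gja1 lay at 0.22 (adjusted p = 0.085). Their 8 intensities added up to 17914 and 17999 in WT against 17391 and 17804 in RKO. The part of astrocytes in the Gstm1 value was not tested.

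**Figure D4:**
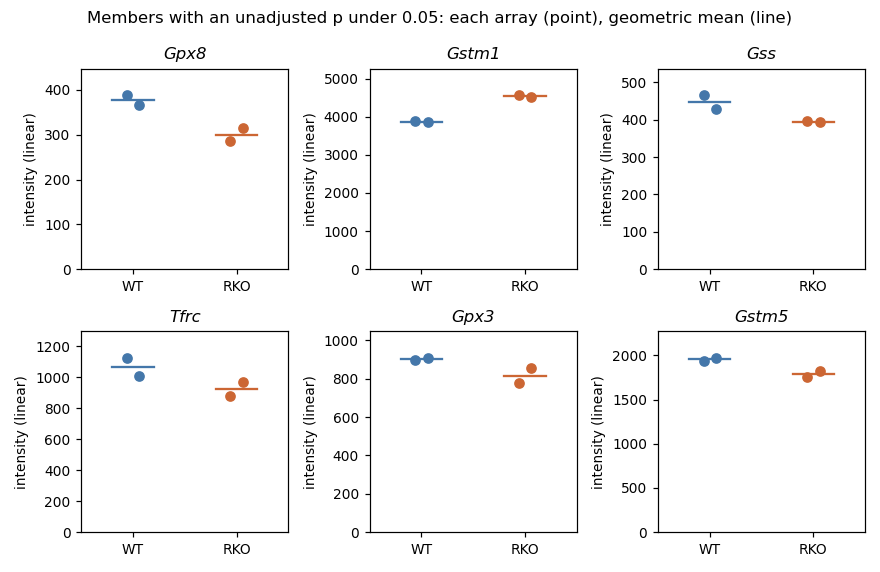
Linear intensity (vertical axis, from 0) of the 6 genes with an unadjusted p under 0.05, with each array as a point and the geometric mean of a group as a line. Gstm1 is higher in both RKO arrays and the other 5 genes are lower in both, with Gpx8 showing the widest gap relative to its level.

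Peroxiredoxins, which reduce hydrogen peroxide, and the thioredoxins that recharge them gave 0 of 7 passing, with a range of -0.098 to 0.027. Txnrd1, the cytosolic thioredoxin reductase, read 709 and 667 in WT and 638 and 647 in RKO (-0.098, SE 0.058, adjusted p = 0.54). Txn1, its substrate, read 8668 and 8756 in WT and 7861 and 8471 in RKO (-0.094, SE 0.059, adjusted p = 0.57). Both cytosolic partners had RKO arrays below WT arrays without passing. Their mitochondrial counterparts were closer to 0, with Txnrd2 at -0.016 and Txn2 at -0.0059, and overlapped between the groups. Prdx1 (-0.074), Prdx2 (0.027) and Prdx3 (0.022) overlapped as well, with Prdx2 ranging from 4142 to 4766 within WT. By their other probe sets Prdx1 lay at -0.13 and Prdx2 at 0.00017. The wide spread in WT was not seen in that other probe set of Prdx2, which read 1539 and 1542.

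Superoxide dismutases, which turn superoxide into hydrogen peroxide, and catalase, which breaks that peroxide down, all lay above 0, and 0 of 4 passed. Cat read 2247 and 2283 in WT and 2327 and 2488 in RKO (0.087, SE 0.059, adjusted p = 0.61). Sod1, the cytosolic enzyme, read 4227 and 4483 in WT and 4533 and 4706 in RKO (0.086, SE 0.059, adjusted p = 0.62). Sod2, the mitochondrial enzyme, read 4148 and 3999.7 against 4171 and 4182 (0.036). These 3 did not overlap between the groups, while the secreted Sod3 did (0.0031). The shared sign did not hold throughout: 1 of the 4 lay below 0 with median centring, without WT replicate 2 and without RKO replicate 2.

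Metallothioneins bind zinc and copper and scavenge radicals, and glucocorticoids and metals induce Mt1 and Mt2. Mt2 read 8101 and 8084 in WT and 8673 and 8372 in RKO (0.074, SE 0.056, adjusted p = 0.66), and Mt1 read 3277 and 3422 against 3466 and 3424 (0.041, SE 0.056). Neither overlapped, but the arrays of Mt1 were barely apart, at 3422 and 3424 where the groups meet. Mt3, the form of the brain, read 2031 and 2143 against 2089.5 and 2062 (-0.0070) with overlapping groups. In all, 0 of 3 passed.

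Iron genes all lay below 0 in RKO, and 0 of 7 passed. Tfrc, the transferrin receptor that takes iron into cells, read 1127 and 1011 in WT and 882 and 971 in RKO. The groups did not overlap, but the spread within each was wide (-0.21, SE 0.071, adjusted p = 0.24, interval from -0.36 to -0.049). Tfrc passed in 2 of 13 alternatives, with an intensity trend and with the crossed replicate block. That block was added after the data were seen. In the brain Tfrc is strong in capillary endothelium, and of 7 endothelial and pericyte markers 0 passed and 5 lay below 0, among them Slco1c1 (-0.20) and Vtn (-0.23), while Cldn5 lay at 0.19. Added together they read 6651 and 6776 in WT against 6144 and 6479 in RKO, and their part in the Tfrc value was not tested.

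The storage and export genes showed less. Fth1, the ferritin heavy chain, read 11912 and 11672 in WT and 11805 and 11274 in RKO (-0.032, SE 0.057), and Ftl1, the light chain, read 1928 and 1809 against 1833 and 1862 (-0.015, SE 0.058). Both overlapped between the groups. The iron exporter ferroportin, Slc40a1, read 218 and 237 in WT and 203 and 231 in RKO (-0.071, SE 0.073). The importer Slc11a2 was at -0.058 without overlap, Ireb2, which controls iron genes at the level of mRNA, at -0.026, and the copper-containing ferroxidase Cp at -0.0093. The common sign rested on small values: 3 of the 7 lay above 0 after quantile normalization, without WT replicate 1 and without RKO replicate 1.

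A further list of 98 genes of the same pathways gave 79 above the filter. Of these, 0 rose, 1 fell and 78 did not pass, with a median of -0.0045. Among all tested genes 1.60% were called, so 1 of 79 was near the background. At an unadjusted p under 0.05 there were 9 of the 79, or 11.4% against 12.8% of all genes. The gene that fell was Slc7a11, the exchanger that brings in cystine for glutathione synthesis in return for glutamate and a known NRF2 target. It read 1183 and 1119 in WT and 882 and 904 in RKO. All RKO values were below all WT values (-0.37, 1.29-fold, SE 0.058, adjusted p = 0.0088 in limma). Slc7a11 passed in 10 of 13 alternatives, and lost its call with no filter, without RKO replicate 1 and without RKO replicate 2. The leptomeningeal sums given above moved the same way. So did those of the astrocyte, oligodendrocyte, microglia, and endothelial and pericyte lists. Those of choroid plexus and dopamine neurons were higher, although Kcnj13 of the choroid plexus list was lower, as given above. The part of any of these cells in Slc7a11 was not tested.

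The other 8 genes of this list with an unadjusted p under 0.05 did not pass after adjustment. Gstt3, a transferase of the theta class, had the next lowest p, with 346 and 341 in WT and 421 and 401 in RKO (0.26, SE 0.057, adjusted p = 0.052), and it passed in 6 of 13 alternatives. Above 0 were also Ephx1 (0.16), Msrb2 (0.16) and Osgin1 (0.14), and below 0 were Msrb3 (-0.19), Glrx (-0.15), Txnip (-0.14) and Pgrmc1 (-0.13). Slc3a2, the partner chain of Slc7a11, was at -0.036. Aco1, which as an apoprotein is an iron regulatory protein, read 862 and 882 against 873 and 919 (0.039). Trf, the transferrin that oligodendrocytes make in the brain, read 7389.6 and 7215 in WT and 6709 and 7058 in RKO (-0.086, SE 0.057, adjusted p = 0.61). All 7 oligodendrocyte markers above the filter lay below 0 as well, with a median of -0.095 and 1, Opalin, passing (-0.30), and their part in the Trf value was not tested.

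The 6 genes with the lowest p kept their sign in every alternative in which each was tested, although few calls were made. For most alternatives this was fixed in advance. The groups do not overlap in these 6 genes, so leaving out an array cannot change the sign. Filters, the trend and the blocks leave the difference itself unchanged. The kept sign is therefore no measure of robustness. Over all 56 genes, 29 kept their sign and 27 changed it at least once, the largest of those being Prdx1 at -0.074.

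**Figure D5:**
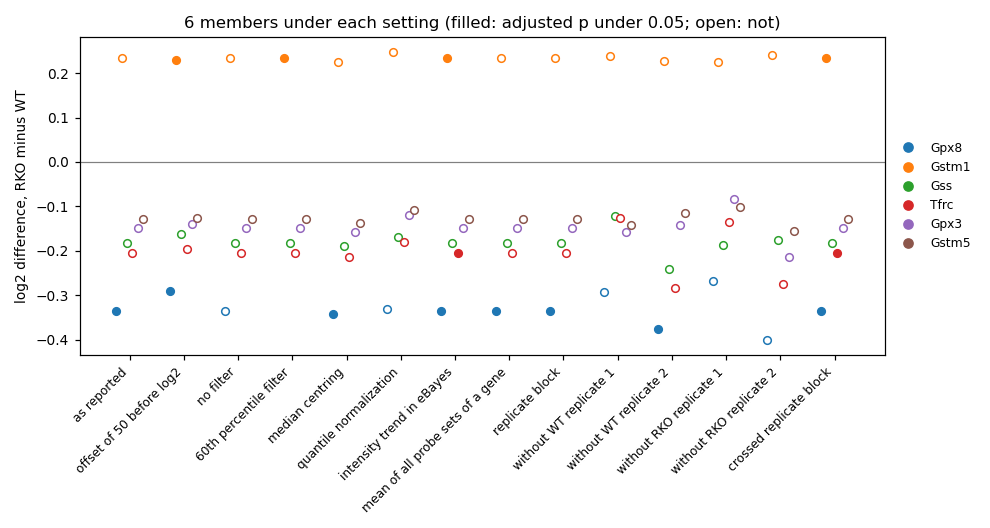
Log2 difference, RKO minus WT (vertical axis), of the 6 members with an unadjusted p under 0.05 as reported and under each alternative (horizontal axis); filled points had an adjusted p under 0.05. Gstm1 stays near 0.23 throughout and Gpx8 runs from -0.40 to -0.27, and Gpx8 has no point with the 60th percentile filter because it lay below it.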

How the data were processed

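The deposited table held 1 linear intensity per probe set and array (35556 probe sets), normalized by the authors. The submitters' processing notes name GCOS and RMA without version or settings, and the scale was read from the values. Intensities were taken to log2. Probe sets with 1 symbol (21789) were kept, and those with several (1621) or none (12146) only entered the filter's percentile. Genes with a mean under the 40th percentile (intensity 167) were left out, which removed 6351. RKO and WT, with 2 arrays each, were compared in limma 3.58.1 (lmFit, then eBayes; R 4.3.3) over 13587 genes, and SEs are limma's moderated ones with 2 residual and 8.73 prior degrees of freedom. An exact permutation test of 2 against 2 cannot go below p = 0.333 and was not run. The code was tested on simulated data.

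Every gene of the list may be named, and arrays are given for those that passed, the 3 largest differences either way, the 2 largest in each role and 19 genes listed by name. Array values of other members, and of pathway genes other than Slc7a11, were added after they were seen. Members, lists and alternatives were chosen with earlier results of these data known. Alternatives were an offset, 2 other filters, 2 scalings, an intensity trend, the mean of a gene's probe sets, a replicate block and each array left out. A crossed replicate block was added after the data were seen, and every count of alternatives includes it. Promoters came from RefSeq. The replicate numbers are not stated to mark a shared litter or day. No arrays shared more than 5 identical values, and their number limits the precision.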

Additional observations from a re-analysis of the deposited data

How the results depend on the processing

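With 2 arrays per group, counts of calls moved with most settings; the cause was not tested. Over all genes 87 were called higher and 131 lower. An offset of 50 gave 204 lower, no filter 8 higher and 23 lower, median centring 191 and 264, and an intensity trend 190 and 309. Leaving out 1 array gave 32 to 142 higher and 41 to 151 lower, fewest without RKO replicate 1 (32 and 41), 34 and 65 without RKO replicate 2, and 142 higher without WT replicate 2. Among the 56 genes, called lower changed from 1 to 0 with no filter and quantile normalization, and to 2 with an intensity trend. That count was also 0 with the 60th percentile filter, which left 48 of the 56 and removed Gpx8 before the test. Called higher changed from 0 to 1 with the offset, the 60th percentile filter and the trend. Among the other pathway genes 1 was called higher with the offset, the 60th percentile filter, median centring, the trend and the mean of probe sets. Called lower there became 0 with no filter and 2 with the trend, and ran from 0 to 1 with an array left out. The median over the 56 genes ran from -0.039 to 0.012, above 0 with quantile normalization and without RKO replicate 1. The spread of this median between replicates was 0.028 (SD). Leaving out an array moves the median through those same replicate differences, so comparing the 2 is no measure of robustness. Nr1d1 was fitted without the filter under each setting, unlike the 56 genes, so the 60th percentile filter did not bear on it. It kept its fall in every alternative run, from -1.32 to -1.22 with an array left out. Its call was lost without RKO replicate 1 and without RKO replicate 2. The replicate block gave 105 higher and 154 lower over all genes and changed no call among the 56. Deviations of same-numbered arrays correlated at -0.11, so a crossed replicate block, added after seeing the data, was run: 334 higher and 362 lower over all genes, 1 and 2 among the 56, and 1 and 1 among the other pathway genes.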
